A study of Mus musculus with 4 samples.

Results

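The genes described here are 32 known targets and partners of the tumour suppressor p53, chosen by symbol from a list of the p53 response. All 32 were found among the 24982 genes of the count table, and 31 had enough counts to be tested. RNA sequencing was performed on forebrain dissected from mouse embryos at E10.5, the stage at which neurons begin to form, in 2 control and 2 conditional knockout (cKO) libraries. Controls were Chd7 +/f: they had 1 floxed allele of Chd7, the gene of a chromatin remodeller, and no Cre is named for them. The cKO libraries carried Sox1 cre+/-; Chd7 f/f, in which both Chd7 alleles are floxed and Cre is driven from Sox1, a gene of the neural plate and neural tube. Blood and vessels in the dissected tissue lie outside that lineage. Whether Cre acted in mesenchyme or neural crest cells is not given in the labels. Because Cre is named for the cKO alone, an effect of Cre itself cannot be told apart from that of Chd7 loss. The same holds for an effect of the Sox1 cre allele on Sox1. Whether each library holds 1 embryo or a pool is not given in the labels, so p-values measure only the spread between these libraries, which may be technical.

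The p53 protein is a transcription factor that is held low by MDM2, a ubiquitin ligase whose own gene p53 activates. After DNA damage, ribosomal stress or oncogene activity, p53 is stabilised and switches on genes for cell cycle arrest, apoptosis, DNA repair and growth restraint. In the embryonic neuroepithelium an excess of p53 activity is known to cause cell death, and CHD7 loss has been linked to p53 activation in neural crest cells. The question here was whether the RNA of p53 targets was higher in the cKO forebrain.

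p53 binds DNA at an element built of 2 copies of a 10-base motif (3 purines, a C, 2 bases that are A or T, a G, 3 pyrimidines) with a spacer of 0 to 13 bases between them. The motif reads alike on both strands. Among RefSeq promoter windows of GRCm38.p6, which run from 250 bases before to 50 bases after a transcript start, 26 of the 32 genes were matched, with 37 windows. Allowing 1 mismatch outside the fixed C and G, a full element was found in 3 of these 37 windows (8.11%) and in 206 of all 32851 windows (0.627%). They belonged to Cdkn1a, Ccng1 and Gtse1. These sequences are shown because they are the letters through which p53 is known to act on such genes. A match is a description of the sequence and not a measurement of binding. The 250 bases before the upstream start of Cdkn1a, the element of Ccng1 with its flanks and the element at a start of Gtse1 are given 5′ to 3′ on the gene's strand, with the 10-base motif copies in capitals.
Cdkn1a, chr17:29090729-29090978, plus strand: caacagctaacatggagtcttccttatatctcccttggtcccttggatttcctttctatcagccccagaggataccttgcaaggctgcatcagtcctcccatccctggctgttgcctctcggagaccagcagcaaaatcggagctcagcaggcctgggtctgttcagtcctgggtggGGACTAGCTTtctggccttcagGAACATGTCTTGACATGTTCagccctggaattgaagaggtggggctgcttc
Ccng1, chr11:40755462-40755481, minus strand: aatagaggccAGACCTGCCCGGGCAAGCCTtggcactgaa
Gtse1, chr15:85859945-85859964, plus strand: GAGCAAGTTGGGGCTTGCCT
In Cdkn1a the 2 adjoining copies at 29090928 to 29090947 lie 2822 bases before the other RefSeq start of the gene. A further copy 12 bases upstream forms an overlapping element with 0 mismatches, a kind found in 0.0731% of all windows. Single copies of the exact motif were present in 14 of the 37 windows (37.8%), from 13 genes, against 8.36% of all windows. Because the genes were chosen as known p53 targets and partners, these shares only describe the list. Elements outside the windows were not read.

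None of the tested p53 list genes passed the threshold in either direction. With edgeR's quasi-likelihood test and a Benjamini-Hochberg adjusted p below 0.05 over all genes tested, 0 of 31 were higher in the cKO, beside 1.57% of the 14235 genes tested, and 0 were lower, beside 2.13% (3.70% of all genes in either direction). The DESeq2 Wald test called 1 higher (Ccng1) and 1 lower (Btg2), and limma-voom called 0. Among all 14235 genes, DESeq2 called 286 higher and 353 lower, and limma-voom called 210 higher and 271 lower. In the authors' deposited comparison, 2 of 31 list genes (Ccng1 and Btg2) had an adjusted p under 0.05. The share there was 4.48% of all genes with an adjusted p. At an unadjusted edgeR p under 0.05 there were 5 genes (16.1%). Ccng1, Cdkn1a, Psrc1 and Sesn2 had higher values in the cKO, and Btg2 had lower ones. The same share over all genes was 17.5%. The median log2 fold change (cKO over control, also given as log2 difference) of the 31 genes was 0.03, and that of all genes was −0.00028. Without control replicate 2 the median of the 31 was 0.10. For 9 genes (29.0%) both cKO libraries lay above both controls, beside 24.3% of all genes, and for 4 (12.9%) both lay below, beside 24.0%. These shares describe the list and were not tested.

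The size of change that the data leave possible differed by gene. The 95% interval of the fold change, taken gene by gene, stayed below a 1.5-fold rise for 21 of the 31 genes and below a 2-fold rise for 26. For 20 genes the whole interval lay within 1.5-fold either way. By the estimate alone, 20 genes had a log2 fold change within 0.15 of 0. The exceptions with an upper bound above a 2-fold rise were Cdkn1a, Eda2r, Perp, Plcd4 and Ano3, each of them with a mean below 20 CPM in both groups. CPM is the count as a share of the TMM-scaled library total and is not divided by gene length, so levels are compared between libraries and not between genes. Total counts ran from 16581252 to 17096522 per library. In bulk tissue, fewer cells of a type and less RNA per cell cannot be told apart.

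**Figure D1:**
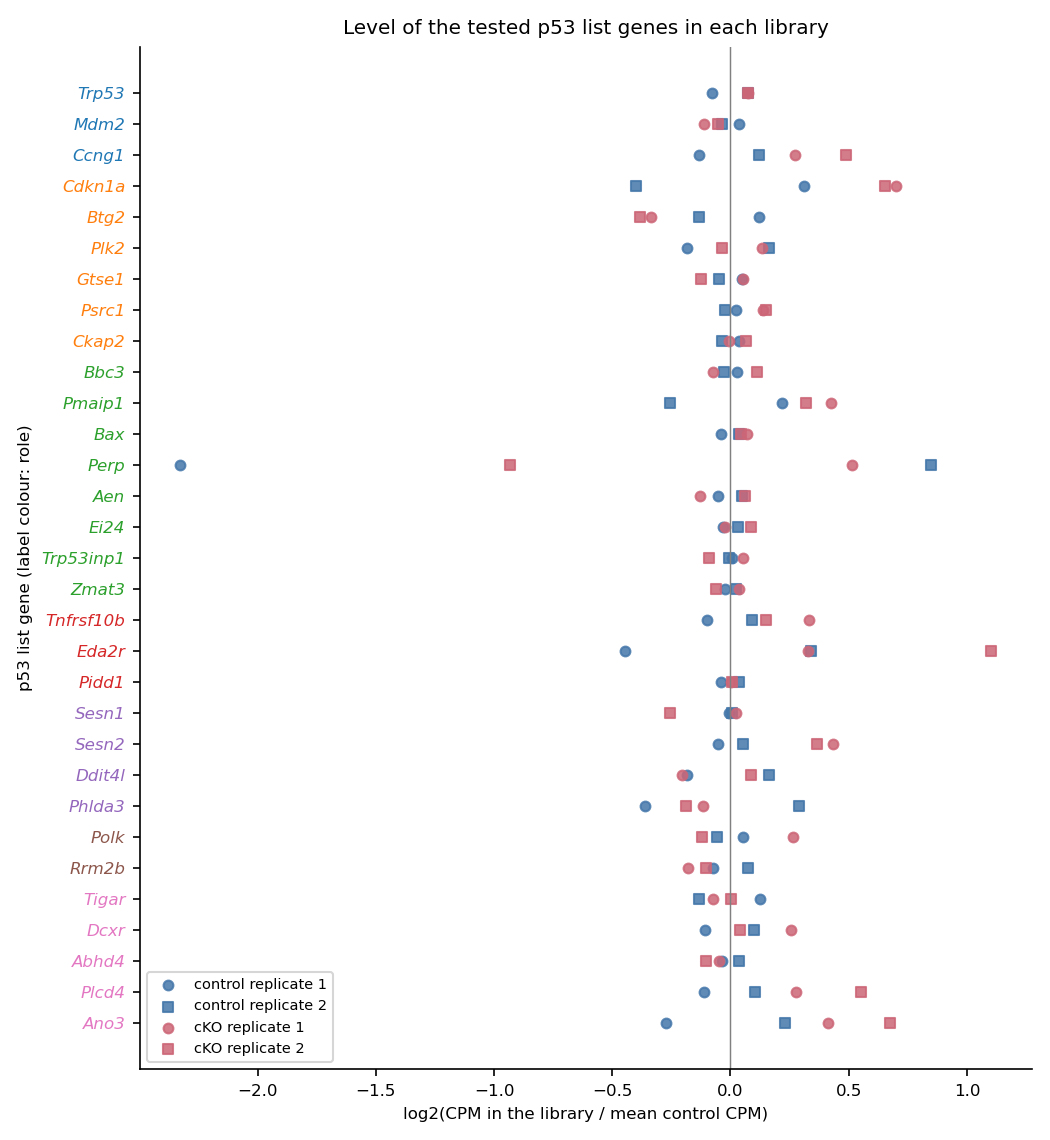
Level of each tested p53 list gene in each library, as log2 of its CPM over the mean control CPM (horizontal axis), with 1 row per gene; blue points are the 2 control and red points the 2 cKO libraries, and label colours follow the roles named in the plot of changes. For most genes the red and blue points mix around 0; the cKO points of Ccng1, Cdkn1a and Sesn2 lie to the right of both controls, those of Btg2 to the left, and Perp is spread widely within both groups.

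The knockout was visible in the targeted gene. Chd7 measured 339 and 345 CPM in the control and 136 and 132 CPM in the cKO libraries (log2 difference −1.35, SE 0.05, edgeR adjusted p = 8.7e-05). The counts cover every exon, those outside the deleted part included.

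Trp53 and its feedback regulators came first among the roles. Trp53, which encodes p53, measured 161 CPM (replicate 1) and 179 CPM (replicate 2) in the controls, against 178 CPM (replicate 1) and 179 CPM (replicate 2) after Chd7 deletion. Control replicate 1 was the low library, and the other 3 lay together. The log2 fold change was 0.07 (SE 0.06, 95% interval −0.07 to 0.22, adjusted p = 0.600). p53 is controlled largely through protein stability, which RNA counts do not measure. Mdm2, the p53 target that closes the feedback loop, was at 75.7 and 71.9 CPM in control and 68.3 and 71.2 CPM in cKO libraries. The cKO values lay just under both controls, with a log2 fold change of −0.08 (SE 0.06, 95% interval −0.23 to 0.06, adjusted p = 0.567). The upper bound of the Mdm2 interval was a 1.05-fold rise.

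Ccng1 encodes cyclin G1, a p53-induced partner of phosphatase 2A that acts back on MDM2 and p53. It measured 61.3 and 73.1 CPM in the control and 81.1 and 94.4 CPM in the cKO libraries. Both cKO values were above both controls, and each pair was itself spread by more than 10 CPM. The log2 fold change was 0.38 (SE 0.10, 95% interval 0.14 to 0.63, adjusted p = 0.101), a 1.31-fold difference. It passed with DESeq2 (adjusted p = 0.0439), in the authors' deposited table (log2 fold change 0.38, adjusted p = 0.0394) and without control replicate 2 (0.52, adjusted p = 0.0185); its adjusted p was 0.399 without cKO replicate 2. Its promoter window holds the element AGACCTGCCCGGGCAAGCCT. Windows of Cdkn1a and Gtse1 (log2 fold changes 0.68 and −0.03) hold elements too. The part of these elements in the values was not tested.

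Among the genes of cell cycle arrest and division, Cdkn1a had the largest difference. It encodes p21, the inhibitor of cyclin-dependent kinases through which p53 halts the cell cycle, and is the most used readout of p53 activity. Its raw counts were 199 and 124 in the control and 259 and 256 in the cKO libraries, or 11.9, 7.30, 15.6 and 15.1 CPM. The 2 cKO libraries were nearly equal and above both controls, while the controls differed from each other. The fold change was 1.60 (95% interval 1.11 to 2.30, log2 fold change 0.68, SE 0.22, adjusted p = 0.175). Its size depended on the control: on the log2 scale it was 1.08 (edgeR adjusted p = 0.0311) when control replicate 1 was left out and 0.37 (0.338) when control replicate 2 was. The exons of Cdkn1a share 273 of 3553 bases with a gene on the opposite strand in GENCODE M21, where reads counted without strand cannot be assigned.

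Btg2, an antiproliferative gene that is also known as a marker of neural progenitors about to form neurons, had the smallest p of the list. It measured 97.1 and 81.3 CPM in the control and 70.7 and 68.4 CPM in the cKO libraries. Both cKO libraries were below both controls, and the direction was opposite to that of p53 induction. The log2 fold change was −0.36 (SE 0.09, 95% interval −0.56 to −0.15, adjusted p = 0.0785). It passed with DESeq2 (adjusted p = 0.0415) and in the authors' deposited table (−0.36, adjusted p = 0.0388), and did not pass with limma-voom (adjusted p = 0.0908). Of the 12 alternatives, 2 called Btg2. With 1 library left out its value ran from −0.48 (without control replicate 2) to −0.22 (without control replicate 1). Markers of neurons moved in the same comparison: 4 of 12 were lower (Tubb3, Elavl3, Elavl4 and Mapt) and 0 higher, and their summed level was 899 to 1069 CPM in control and 623 to 644 CPM in cKO libraries. The list of immediate early and heat shock genes, the first of which Btg2 is also known to respond with, had 1 of 18 tested members lower and 0 higher; that member was Jun, a subunit of the AP-1 factor (log2 fold change −0.35, SE 0.06, adjusted p = 0.031, lost without control replicate 1, 0.0719, cKO replicate 1, 0.0585, or cKO replicate 2, 0.186). Beside both list counts, 2.13% of all genes were called lower and 1.57% higher. The part of neurons and of the immediate early response in the Btg2 value was not tested.

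The other 4 genes of this role act in centrosome duplication and mitosis. Plk2, a polo-like kinase, was at 24.3 and 30.8 CPM in control and 30.3 and 26.9 CPM in cKO libraries, so that the groups overlapped. Gtse1, which shuttles p53 out of the nucleus in G2, was at 84.5 and 78.9 CPM in control and 84.6 and 75.0 CPM in cKO libraries. Ckap2, a spindle protein, was at 87.4 and 83.1 CPM and at 84.8 and 89.1 CPM. The log2 fold changes of these 3 genes were 0.05, −0.03 and 0.03, with adjusted p of 0.896, 0.878 and 0.860. Psrc1, a regulator of the mitotic spindle, was at 97.5 and 94.6 CPM in control and 105.7 and 106.5 CPM in cKO libraries. Its 4 values separated the groups by a small margin (log2 fold change 0.14, SE 0.05, adjusted p = 0.223). Other genes of G2 and M phase, which peak with Gtse1, Ckap2 and Psrc1 in dividing cells, had 0 of 24 members called by edgeR in either direction. Their log2 fold changes ran from −0.16 to 0.10, with a median of −0.01. At an unadjusted p under 0.05 there was 1 gene, beside 17.5% of all genes.

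**Figure D2:**
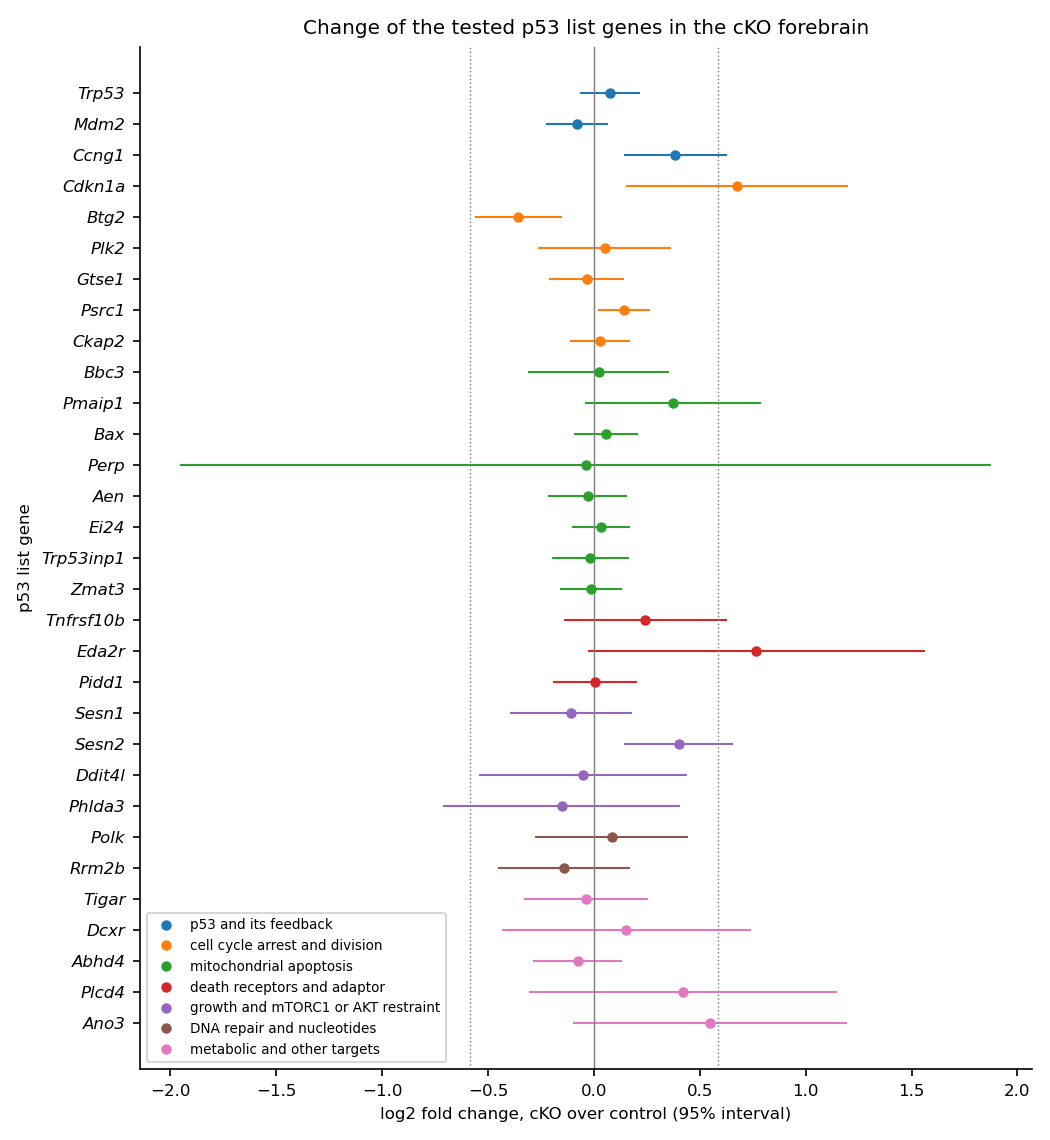
Log2 fold change, cKO over control, of each tested p53 list gene (points, coloured by role) with its 95% interval (lines); dotted lines mark 1.5-fold either way. Most intervals are short and include 0; those of Ccng1, Cdkn1a, Psrc1, Sesn2 and Btg2 do not, and that of Perp is the widest.

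The genes of mitochondrial apoptosis had 0 of 8 members called by edgeR and 0 at an unadjusted p under 0.05. Bbc3, which encodes PUMA, the main killer protein downstream of p53 in neural cells, was at 13.2 and 12.7 CPM in control and 12.3 and 14.02 CPM in cKO libraries. The cKO libraries lay on either side of the controls, with a log2 fold change of 0.02 (SE 0.14, 95% interval −0.31 to 0.35, adjusted p = 0.960). Pmaip1, which encodes the related protein NOXA, was at 14.58 and 10.48 CPM in control and 16.8 and 15.6 CPM in cKO libraries. Both cKO libraries were higher than both controls, and control replicate 2 was the low library, as it was for Cdkn1a (log2 fold change 0.37, SE 0.18, 95% interval −0.04 to 0.79, adjusted p = 0.338). Without control replicate 1 the Pmaip1 value was 0.63 and without control replicate 2 it was 0.15, with no call in either fit. Bax, the pore-forming protein of the outer mitochondrial membrane, was at 56.4 and 59.4 CPM in control and 60.8 and 59.7 CPM in cKO libraries (log2 difference 0.06, SE 0.07, adjusted p = 0.727).

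Aen, an apoptosis-enhancing nuclease, Ei24, a membrane protein of the endoplasmic reticulum, Trp53inp1, a cofactor of p53, and Zmat3, an RNA-binding protein that acts in splicing, were measured at 44.3 to 148 CPM in every library. Their log2 fold changes ran from −0.03 to 0.03, and the groups overlapped for all 4. Their intervals reached a rise of at most 1.12-fold, for Ei24 and Trp53inp1. Zmat3, for example, was at 76.1 and 78.6 CPM in control and 79.2 and 74.2 CPM in cKO libraries (log2 difference −0.01, SE 0.06, adjusted p = 0.947).

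Perp, a membrane protein of desmosomes that p53 and its relative p63 both induce, varied more than any other gene of the list. It had 15 reads (replicate 1) and 138 reads (replicate 2) in the controls, against 107 reads (replicate 1) and 40 reads (replicate 2) in the cKO. The spread within each group was wider than the difference between them. Group means were 4.51 CPM in control (SD 5.11) and 4.41 CPM in cKO libraries (SD 2.89). The log2 fold change of −0.04 had an interval from −1.95 to 1.88. It was 2.28 without control replicate 2, again with no call. Other genes, most of them epithelial, were looked up after these values were seen and also varied. In the same library order, Trp63, which encodes p63, had 0, 101, 79 and 27 counts and Cldn6 9, 88, 74 and 27. Krt8 had 43, 181, 149 and 104, Krt18 36, 142, 191 and 131 and Cdh1 36, 236, 222 and 231. Epcam, at 109, 190, 342 and 298, was higher in both cKO libraries than in both controls. Nkx2-1 (57, 577, 71 and 136) and Shh (113, 387, 41 and 686) did not follow Perp in cKO replicate 1. Krt5 was close to absent (0, 2, 3 and 0). Their part in the Perp values was not tested.

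The death receptors and their adaptor had 0 of 3 tested members called by edgeR and 0 at an unadjusted p under 0.05. Fas, the receptor of Fas ligand, was close to absent: 2, 0, 0 and 3 reads in the 4 libraries, too few to test. Tnfrsf10b, the mouse TRAIL receptor, was at 8.46 and 9.65 CPM in control and 11.4 and 10.1 CPM in cKO libraries (log2 difference 0.24, SE 0.17, adjusted p = 0.513). Eda2r, an X-linked receptor of the ectodysplasin A2 ligand, had the largest estimate of the list. Its counts were 57 and 100 in control and 97 and 169 in cKO libraries. The groups overlapped, since cKO replicate 1 matched control replicate 2 (log2 fold change 0.77, SE 0.34, 95% interval −0.03 to 1.56, adjusted p = 0.304). Its value ran from 0.33 to 1.21 over the fits that leave out 1 library. Pidd1, the scaffold that activates caspase-2, was at 32.1 and 33.8 CPM in control and 33.0 and 33.1 CPM in cKO libraries (log2 difference 0.005, SE 0.08, adjusted p = 0.987).

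Genes that restrain growth signalling had 0 of 4 members called by edgeR and 1, Sesn2, at an unadjusted p under 0.05. Sesn2 encodes sestrin 2, which lowers mTORC1 activity when leucine is scarce. It measured 17.6 and 18.9 CPM in the control and 24.6 and 23.5 CPM in the cKO libraries. The replicates of each group were close, and both cKO libraries were above both controls (1.32-fold, 95% interval 1.10 to 1.58, log2 fold change 0.40, SE 0.11, adjusted p = 0.110). The value ran from 0.35 to 0.45 over all alternatives, with the smallest adjusted p at 0.101. Its paralogue Sesn1 was at 23.8 and 24.0 CPM in control and 24.3 and 20.1 CPM in cKO libraries (log2 difference −0.11, SE 0.12, adjusted p = 0.721). Sesn2 is also known as a target of ATF4, the factor of the integrated stress response. Of 17 tested genes of that response 0 were called by edgeR, with a median log2 fold change of 0.07. At an unadjusted p under 0.05 there were 4, 2 higher and 2 lower, beside 17.5% of all genes. Atf4 itself was at −0.14 (edgeR adjusted p = 0.206). Phlda3, an inhibitor of AKT, was at 6.30 and 9.89 CPM in control and 7.47 and 7.10 CPM in cKO libraries, and Ddit4l, an mTORC1 inhibitor, had a log2 fold change of −0.05. The Phlda3 value of −0.15 ranged from −0.44 to 0.21 when a library was left out.

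In DNA repair and nucleotide supply, Polk, a polymerase that copies past damaged bases, was at 18.3 and 16.95 CPM in control and 21.2 and 16.2 CPM in cKO libraries. Rrm2b, the p53-induced subunit of ribonucleotide reductase, was at 14.4 and 16.0 CPM in control and 13.4 and 14.1 CPM in cKO libraries. The Rrm2b libraries of the cKO lay just under the controls (log2 fold change −0.14, SE 0.13, adjusted p = 0.663), and those of Polk overlapped with them (0.08, SE 0.15, adjusted p = 0.841). Of 5 metabolic and other targets 0 were called by edgeR and 0 had an unadjusted p under 0.05. Tigar, a fructose bisphosphatase that diverts glucose to the pentose phosphate pathway, was at 24.4 and 20.4 CPM in control and 21.2 and 22.4 CPM in cKO libraries (−0.04, adjusted p = 0.920). Abhd4, a lipid hydrolase, had a log2 fold change of −0.08 and Dcxr, a xylulose reductase, of 0.15. Plcd4, a phospholipase C, and Ano3, of the anoctamin family, had few counts, 33 to 53 and 45 to 88 per library. Both cKO libraries were above both controls for each of them (0.42, SE 0.31, adjusted p = 0.552 for Plcd4; 0.55, SE 0.28, adjusted p = 0.365 for Ano3). The exons of Plcd4 share 29.8% of their bases with Zfp142 on the opposite strand.

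**Figure D3:**
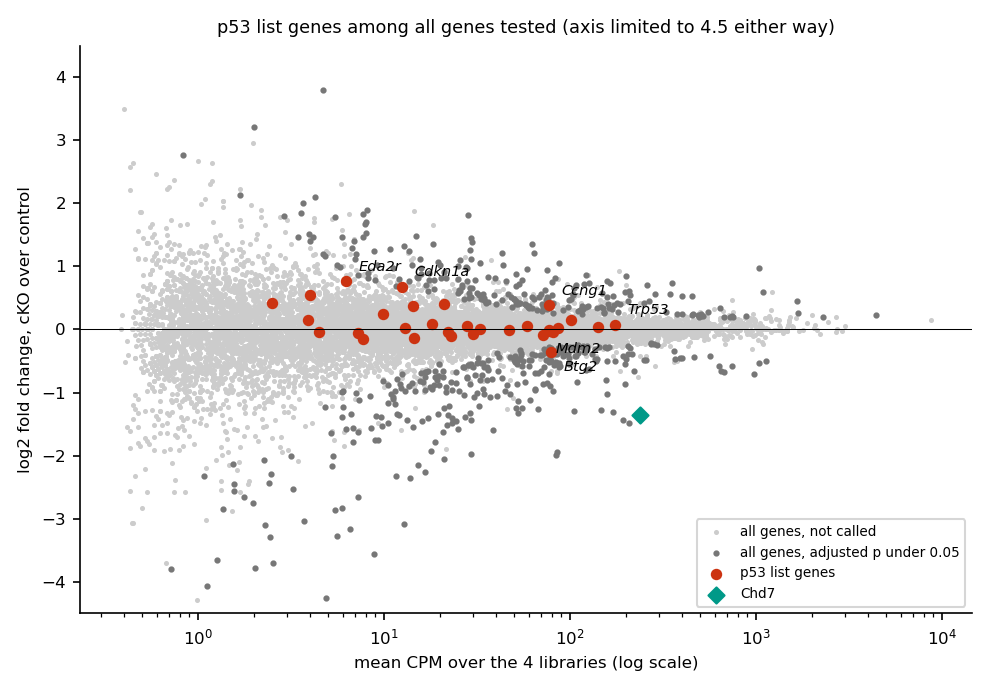
Log2 fold change, cKO over control (vertical axis), against mean CPM over the 4 libraries (horizontal log axis) for all 14235 genes tested, with called genes in dark grey, p53 list genes in red and Chd7 as a diamond. The red points lie inside the cloud of genes that were not called, and Chd7 lies below it at −1.35.

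**Figure D4:**
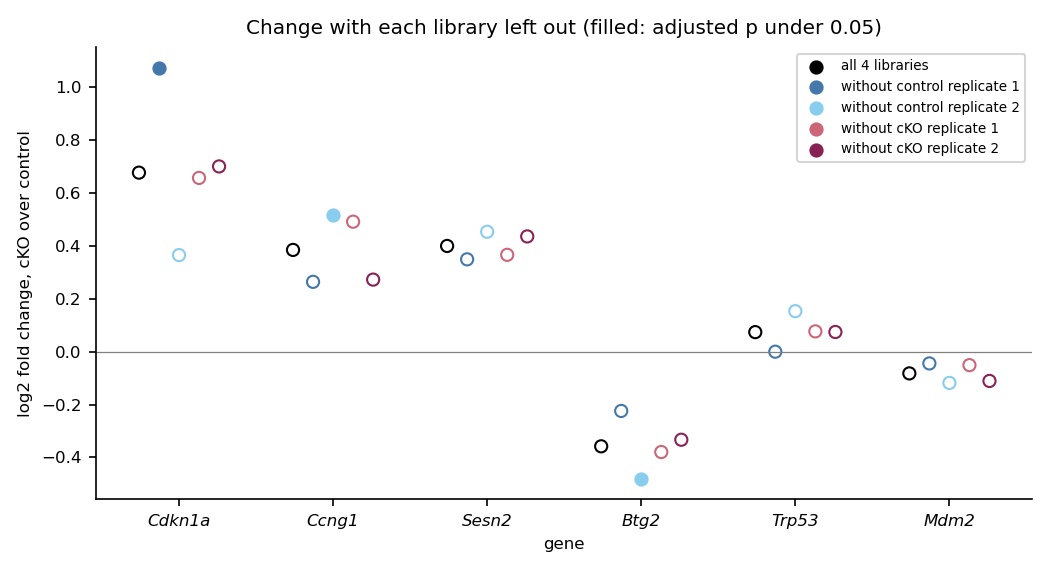
Log2 fold change, cKO over control, of 6 p53 list genes with all 4 libraries (black) and with each library left out (colours); filled points passed an adjusted p of 0.05. Cdkn1a runs from 0.37 to 1.08 and passes in 1 of the 4 fits, Ccng1 and Btg2 pass without control replicate 2, and Sesn2, Trp53 and Mdm2 pass in none.

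Of 25 tested genes for kinases, ubiquitin ligases, acetyltransferases and relatives of p53, 0 were higher and 1 lower. Over all genes 1.57% were called higher and 2.13% lower. The 25 log2 fold changes ran from −0.28 to 0.17, with a median of 0.04. Trim24, a ubiquitin ligase that targets p53 and also a nuclear receptor cofactor, was at 127 and 129 CPM in control and 106 and 105 CPM in cKO libraries. It fell by 0.28 on the log2 scale (SE 0.05, edgeR adjusted p = 0.031). The call was lost when any 1 library was left out, with adjusted p from 0.0514 (control replicate 2) to 0.172 (cKO replicate 2), while the value stayed between −0.29 and −0.27. Mdm4, the p53 inhibitor related to MDM2, measured 225 and 220 CPM in control and 220 and 219 CPM in cKO libraries (log2 difference −0.02, SE 0.04, adjusted p = 0.890). Rpl5 and Rpl11, ribosomal proteins that bind MDM2 when ribosome assembly fails, had log2 fold changes of 0.12 and 0.13 (adjusted p = 0.194 and 0.285), and Atm and Atr, the damage-sensing kinases, of 0.08 and 0.17 (0.499 and 0.309).

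A second list of reported p53 targets, which includes genes with strong inputs other than p53, had 5 of 27 tested genes higher and 0 lower, beside 1.57% higher and 2.13% lower over all genes, with a median log2 fold change of 0.11. At an unadjusted p under 0.05, 8 were higher and 1 lower, beside 17.5% of all genes in either direction. Values above 0 numbered 19 of the 27, beside 49.9% of all genes. The list was chosen with earlier results of these data known. These counts therefore only describe it and were not tested. Sulf2, an extracellular sulfatase that edits heparan sulfate and so FGF and Wnt signalling, rose from 176 and 219 CPM in control to 334 and 310 CPM in cKO libraries (log2 difference 0.71, SE 0.10, edgeR adjusted p = 0.011). It was called in every alternative. Ddit4, an mTORC1 inhibitor also induced by hypoxia and glucocorticoids, rose from 65.3 and 64.7 CPM to 85.1 and 105.5 CPM (0.55, SE 0.10, adjusted p = 0.030). Leaving out control replicate 1 (adjusted p = 0.0684) or cKO replicate 2 (0.0829) ended its call. Igfbp3, a binding protein of insulin-like growth factors, Ak1, an adenylate kinase, and Rps27l, a ribosomal protein paralogue, rose with log2 fold changes of 0.78, 0.76 and 0.24 (edgeR adjusted p = 0.0499, 0.0393 and 0.0486). Igfbp3 was at 11.5 and 16.0 CPM in control and 23.5 and 23.7 CPM in cKO libraries, and Ak1 at 9.18 and 11.1 CPM and 17.3 and 17.04 CPM. The Igfbp3 call was lost with DESeq2 size factors (0.0512), with a filter at a mean of 5 CPM (0.0535) and with the erythroid genes removed (0.0506). Without control replicate 1, cKO replicate 1 or cKO replicate 2 the adjusted p was 0.127, 0.121 and 0.173 for Igfbp3 and 0.138, 0.11 and 0.142 for Ak1. Rps27l was at 107 and 107 CPM in control and 127 and 127 CPM in cKO libraries, a small difference with close replicates. Its adjusted p was 0.0883 with DESeq2 and 0.0517 with limma-voom. Only 4 of the 12 alternatives called it, with values from 0.24 to 0.25 over all of them. The number of these genes called higher was 1 without control replicate 1 or without cKO replicate 2 (Sulf2), 2 without cKO replicate 1 and 4 without control replicate 2. The 22 genes that were not called ran from −0.73 (Steap3, a metalloreductase) to 1.11 (Trp53cor1, a long non-coding RNA). Among them were, on the higher side, Mgmt, which repairs alkylated guanine (0.85, edgeR adjusted p = 0.182), Tap1, a peptide transporter (0.94, 0.274), Epha2, an ephrin receptor (0.41, 0.214), Ddb2, a sensor of ultraviolet damage (0.32, 0.497), and Triap1, an apoptosis inhibitor (0.26, 0.330). Near 0 were Xpc, a sensor of DNA damage (0.03), and Fdxr, a mitochondrial reductase (0.007), and on the lower side Gadd45a, a stress sensor of growth arrest (−0.49, edgeR adjusted p = 0.327), and Ercc5, a repair nuclease (−0.18, 0.266).

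The machinery of apoptosis beyond the p53 targets had 0 of 26 genes called by edgeR and a median log2 fold change of 0.03. At an unadjusted p under 0.05 there were 5 genes, 2 higher and 3 lower, beside 17.5% of all genes. Among markers of other cells, of 9 tested erythroid genes 7 were lower and 0 higher, beside 2.13% and 1.57% of all genes. Their median was −0.69, with a summed level of 2867 and 3085 CPM in control and 1903 and 1816 CPM in cKO libraries. The 4 adult globin genes of the list, which were not tested, had 0 counts in each library. This is not read as absence of their RNA. Endothelial genes had 0 of 14 called, with a median of −0.25. Their summed level was 385 to 396 CPM in control and 339 to 340 CPM in cKO libraries. At an unadjusted p under 0.05, 6 of them were lower and 1 higher, beside 17.5% of all genes in either direction. Mesenchyme and neural crest genes also had 0 of 14 called, with 996 to 1141 CPM in control and 1050 and 680 CPM in cKO libraries. At the same unadjusted threshold, 4 of them were lower and 0 higher. Among neural progenitor markers 4 of 12 were lower (among them Sox1, Pax6 and Lhx2) and 0 higher, beside 2.13% and 1.57% of all genes. At an unadjusted p under 0.05, 7 were lower and 2 higher. Those 2 were Hes1 (log2 fold change 0.30, edgeR adjusted p = 0.0886) and Six3 (0.49, 0.0949). Sox1 is also the gene from which Cre is driven in the cKO. An effect of that allele on Sox1 RNA cannot be told apart from one of Chd7 loss. The summed level of the progenitor markers was 3502 to 4032 CPM in control and 3090 to 3209 CPM in cKO libraries. Each of the 12 was detected in every library. The part of these marker lists in the p53 list values was not tested.

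**Figure D5:**
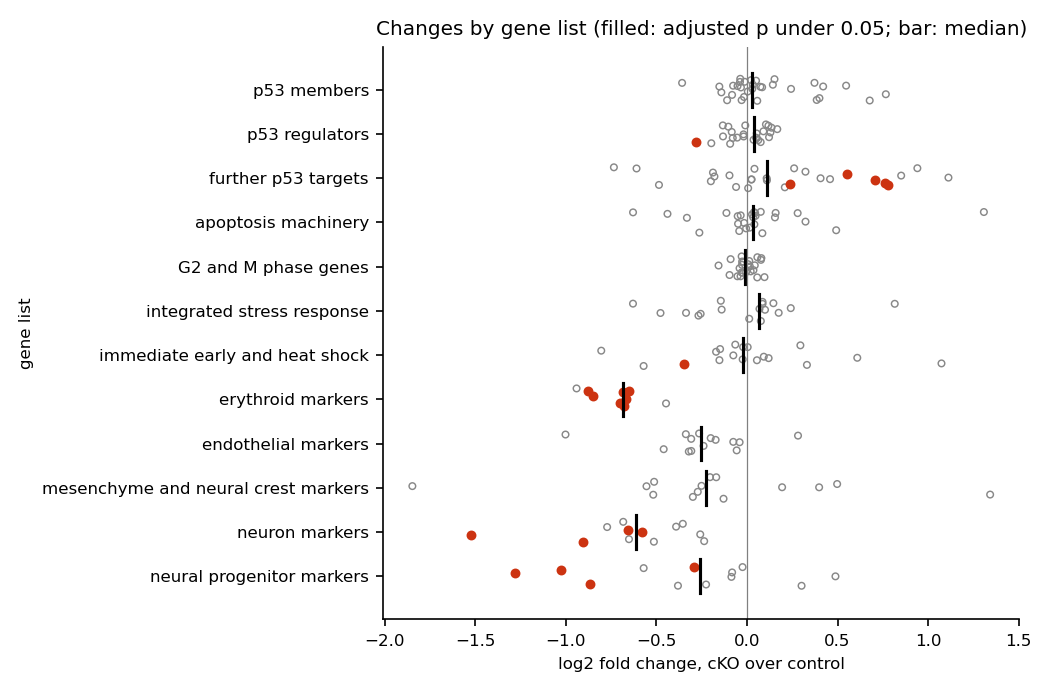
Log2 fold change, cKO over control (horizontal axis), of the tested genes of each list (rows); filled red points passed an adjusted p of 0.05, open points did not, and black bars are list medians. The p53 members and the G2 and M phase genes centre on 0 without a filled point, the further p53 targets hold 5 filled points on the right, and the erythroid and neuron markers lie to the left.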

How the data were processed

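Total RNA of 4 mouse forebrain samples was sequenced from polyA libraries, per the labels' protocols. HISAT2, featureCounts and DESeq2 are the tools in the submitters' processing notes, with the build mm10 (GRCm38). The deposited file holds raw counts of read pairs over RefSeq exons per gene, made with featureCounts 2.0.1 without a strand option, per the file headers. A table of the authors' own comparison, also deposited, gives log2 fold changes, p-values and adjusted p-values, a Wald score (not used) and normalized counts (a signal scaled by the authors, not used); no column of per-sample values was left without a sample.

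Genes were kept by filterByExpr (minimum count 10), scaled by TMM and compared in edgeR 4.0.16 (R 4.3.3; glmQLFit and glmQLFTest, no covariate), with Benjamini-Hochberg adjustment over 14235 genes. The SE is the log2 fold change over the root of F, and the 95% interval uses the moderated degrees of freedom. Alternatives used DESeq2 1.42.0, limma-voom 3.58.1, other size factors and filters, the replicate block and each library left out. The edgeR step was tested on simulated data. Precision rests on total counts of 16581252 to 17096522 and on edgeR's common coefficient of biological variation, 0.0785. Replicates were distinct libraries (chi-square per degree of freedom 5.53 and 4.65). An exact permutation test of 2 against 2 libraries cannot go below p = 0.333 (two-sided) and was not used.

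Members and lists were chosen with earlier results of these data known. Every member is given, by its own value or within its role; of other lists, called members are named, except where a gene is not reported here, and others only where stated as examples, chosen after their values were seen. Of the other list symbols, Rfwd2, Trp53rk and Ahsp were not matched. The sequences were chosen after the values were seen, since no member was called. Promoter windows and positions are RefSeq's for GRCm38.p6; exon overlaps are GENCODE M21's. Plots were drawn with matplotlib 3.10.9.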

Additional observations from a re-analysis of the deposited data

How the results depend on the processing

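Of the 31 tested members, 28 were called in none of the 12 alternatives; Ccng1, Cdkn1a and Btg2 were called in some. The count of members higher in the cKO became 1 with the DESeq2 Wald test and with the replicate block (Ccng1 in both) and ranged from 0 to 1 when a library was left out; the count lower became 1 with DESeq2 (Btg2) and ranged from 0 to 1. The median of the members ranged from 0.02 to 0.10 over the same fits. The counts for the other lists and for all genes under the alternatives were added after the data were seen. With the block the adjusted p was 0.0429 for Ccng1, and the calls of Jun (0.067), Trim24 (0.0662), Ak1 (0.0701), Igfbp3 (0.0695) and Rps27l (0.0914) were lost. Further p53 targets called higher numbered 2 with the replicate block and 1 to 4 with a library left out; regulators called lower numbered 0 with the block and 0 to 0 with a library left out, and regulators called higher 0 to 1 (Trp63). Over all genes, 137 were higher and 211 lower with the block, against 223 and 303; with a library left out the numbers ranged from 80 to 351 and from 131 to 418. Replicate numbers are shared between groups only as numbers: deviations of same-numbered libraries correlated at −0.05 over all genes tested, with 2 pairs, and nothing in the labels ties them. Where 1 library of a group remained, its spread was taken from the other group.

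No called value of a member changed sign. Values near 0 did: Perp was 0.50 with limma-voom and 0.26 with the replicate block, and Zmat3 was 0.0015 with upper-quartile factors. With a library left out, signs changed within these ranges: Trp53 −6.0e-05 to 0.15, Plk2 −0.11 to 0.23, Gtse1 −0.12 to 0.053, Ckap2 −0.0065 to 0.067, Bbc3 −0.074 to 0.12, Perp −0.93 to 2.28, Aen −0.13 to 0.064, Ei24 −0.023 to 0.089, Trp53inp1 −0.088 to 0.055, Zmat3 −0.059 to 0.035, Pidd1 −0.033 to 0.044, Sesn1 −0.25 to 0.024, Ddit4l −0.21 to 0.13, Phlda3 −0.44 to 0.21, Polk −0.12 to 0.27 and Tigar −0.16 to 0.10. The cause was not tested. Fas had too few reads to test, and Perp, Dcxr, Plcd4 and Ano3 were under the filter at a mean of 5 CPM.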

Other observations

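The summed level of the 32 members, which weights each gene by its abundance, was 1315 and 1346 CPM in the control and 1363 and 1372 CPM in the cKO libraries. Within the apoptosis machinery, where no gene was called, the BH3-only gene Bmf was at 32.03 and 52.97 CPM in control and 60.4 and 59.2 CPM in cKO libraries (log2 difference 0.49, SE 0.19, edgeR adjusted p = 0.254). Control replicate 1 was the low library. Bok, a BCL2 family effector, was at 20.1 and 18.7 CPM in control and 13.5 and 15.1 CPM in cKO libraries (log2 difference −0.44, SE 0.13, edgeR adjusted p = 0.128). Htra2, a mitochondrial protease, was at 26.8 and 25.9 CPM and at 30.8 and 35.1 CPM (0.32, SE 0.10, edgeR adjusted p = 0.155). In these 3 genes the cKO libraries did not overlap the controls. Of the 26 tested genes of that list, both cKO libraries lay above both controls for 7 and below them for 6. Over all genes these shares were 24.3% and 24.0%. They were named after their values were seen. The long non-coding RNA Trp53cor1, transcribed next to Cdkn1a, was at 0.660 and 0.412 CPM in control and 1.39 and 0.946 CPM in cKO libraries (log2 difference 1.11, SE 0.51, edgeR adjusted p = 0.317).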
